A study of Mus musculus with 7 samples.

Results

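The genes described here are targets and partners of ATF4 that import or make amino acids, together with regulators of the same stress response. They were taken from a list of 40 symbols that had been put together with earlier results of these data known, and were then selected on their measured level: a mean of at least 0.5 FPKM (fragments mapped to a gene, scaled to transcript length and to library size) over the 7 libraries. Of the 17920 genes in the table, 37 met the rule: 10 of 10 transporters, 14 of 16 synthesis enzymes and 13 of 14 stress regulators. Just inside the level lay Stc2, at a mean of 1.33 FPKM. Outside it lay Aldh1l2 (mean 0.21 FPKM), Vldlr (0.18 FPKM) and Cbs (0.07 FPKM), which are not described further. Slc7a3, Cth and Bcat1 met the level only through the 2 wild-type 6 h libraries: their mean over the other 5 was 0.31, 0.22 and 0.32 FPKM. Without those 2 libraries Slc1a4 and Chac1 would also have missed the mean of 1 FPKM that was required for testing. These 5 genes had to be high in that group to be counted, so counts and medians that include them support nothing. Their own tests against that group are likewise only a description. The source is labelled splenocytes, while the protocol describes RNA from whole spleen, so which cells were kept is uncertain. The mice, of 8 weeks and labelled C57BL/6, had all been given 20 mg/kg of lipopolysaccharide (LPS, a bacterial cell wall component) into the peritoneum. The groups were wild type 90 min after LPS (2 mice), GdX-deficient 90 min after LPS (2 mice), wild type at 6 h (2 mice) and GdX-deficient at 6 h (1 mouse). GdX, or UBL4A, is a ubiquitin-like protein encoded on the X chromosome. The genotype is labelled GdX-/- for the samples and GdX-/Y in the series title and the protocols, and the allele and the way it was made are not described in the labels. No spleen without LPS was analysed here, so the levels can be compared between times and genotypes but not with a resting spleen.

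ATF4 is a transcription factor of the integrated stress response. When amino acids run short, or the endoplasmic reticulum, a virus or lack of heme activates an eIF2 alpha kinase, general translation falls while ATF4 translation rises. ATF4, often paired with a C/EBP protein such as CEBPG or CEBPB, then turns on amino acid transporters, the serine, glycine, asparagine and proline synthesis enzymes, the mitochondrial folate enzymes, and regulators such as CHOP (Ddit3) and TRIB3 that limit the response. Activated immune cells also use the serine and folate branch to supply nucleotides and glutathione.

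ATF4 with a C/EBP partner binds a composite element, searched here as TGATGNAA on both strands (TTNCATCA on the other strand) in the RefSeq promoter windows of GRCm38.p6, from 250 bases before to 50 bases after each listed start. Windows were found for 31 of the 37 genes, and 8 of these held the element in at least 1 window. Among the 8794 tested genes with a window, 2.79% held it, and 3.97% of all 32851 windows did. The genes were listed because they are known ATF4 targets, and some are known through this element, so the share is a description. The first 6 genes are shown because they also rose in wild-type spleen, and Slc7a11 because it holds the element in 2 places and did not pass the test. Each sequence has 30 bases, 5′ to 3′ on the gene's strand, with the element in capitals.
Trib3 (chr2:152344028-152344057, minus strand): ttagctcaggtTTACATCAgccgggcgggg
Chac1 (chr2:119351038-119351067, plus strand): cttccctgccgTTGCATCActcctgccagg
Asns (chr6:7693214-7693243, minus strand): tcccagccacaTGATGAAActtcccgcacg
Slc1a4 (chr11:20332699-20332728, minus strand): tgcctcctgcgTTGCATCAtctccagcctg
Pycr1 (chr11:120643833-120643862, minus strand): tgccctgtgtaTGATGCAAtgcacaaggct
Got1 (chr19:43524689-43524718, minus strand): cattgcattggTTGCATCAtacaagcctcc
Slc7a11, first copy (chr3:50443661-50443690, minus strand): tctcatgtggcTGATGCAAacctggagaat
Slc7a11, second copy (chr3:50443642-50443671, minus strand): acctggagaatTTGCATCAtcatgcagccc
The element began 23 bases before the start of Asns, 4 before that of Slc1a4, 102 before that of Got1, 103 before that of Pycr1 and 193 before that of Chac1. In Trib3 it lay 14 bases after the start. The remaining gene with a match was Nupr1. A match is not evidence of binding, and a window without one says only that these letters were absent from it.

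The low values of the table step by about what 1 fragment is worth, which gave an estimated depth of 19400000 to 21400000 mapped fragments per library. Adult globin genes took from 7.73% to 30.89% of a library's FPKM sum. The library labelled GdX-deficient at 6 h had the low level of Gm44504, a RefSeq gene overlapping Ubl4a, that the other GdX-deficient libraries had (0.66 against 1.01 and 1.86 FPKM, and 14.52 to 51.1 FPKM in wild type), but Ubl4a itself, the targeted gene, was not absent from the GdX-deficient libraries. It stood at 4.03 and 5.69 FPKM in them and 5.62 and 7.5 FPKM in wild type at 90 min, and at 10.56 FPKM against 11.88 and 14.01 FPKM at 6 h, so its total level does not check the labels. Over the 11378 genes tested, the SD of the log2 difference between this library and replicate 2 of the GdX-deficient 90 min group was 0.47 and between it and replicate 1 of that group 0.61, next to 0.51 between these 2 replicates. It was 0.78 and 0.65 against the wild-type 90 min libraries and 0.96 and 0.75 against the wild-type 6 h libraries. Of 7 red pulp macrophage markers it was above both wild-type 6 h libraries for 6, Cd163 being the exception. Slc40a1, the iron exporter, stood at 18.3 FPKM in it, 1.26 and 2.07 FPKM in wild type at 6 h and 14.2 to 23.9 FPKM at 90 min. Cd163 stood at 0.26 FPKM in it, 0.22 and 0.26 FPKM in wild type at 6 h and 2.32 to 3.16 FPKM at 90 min. Each statement on GdX-deficient spleen at 6 h rests on this 1 mouse.

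In wild-type spleen every synthesis enzyme, most of the transporters and 6 of 13 regulators were called higher at 6 h than at 90 min. Together the 37 genes made up 0.144% and 0.172% of the FPKM sum at 90 min and 0.436% and 0.572% at 6 h. Limma, applied to log2(FPKM + 1) with p-values adjusted over all 11378 genes, called 26 of the 37 genes higher at 6 h, where the share over all genes was 4.39%, and 1 lower, where it was 6.32%. By role, the calls for higher levels were 14 of 14 synthesis enzymes, 6 of 10 transporters and 6 of 13 stress regulators. The median log2 difference was 1.99 over the 37 genes (2.64 for synthesis, 1.45 for transport, 1.04 for stress regulators) and 0.05 over all genes. Both 6 h libraries lay above both 90 min libraries for 34 of the 37 genes, against 30.3% of all genes. Since the list was compiled with this result known, the counts describe it and nothing further is read from them.

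**Figure D1:**
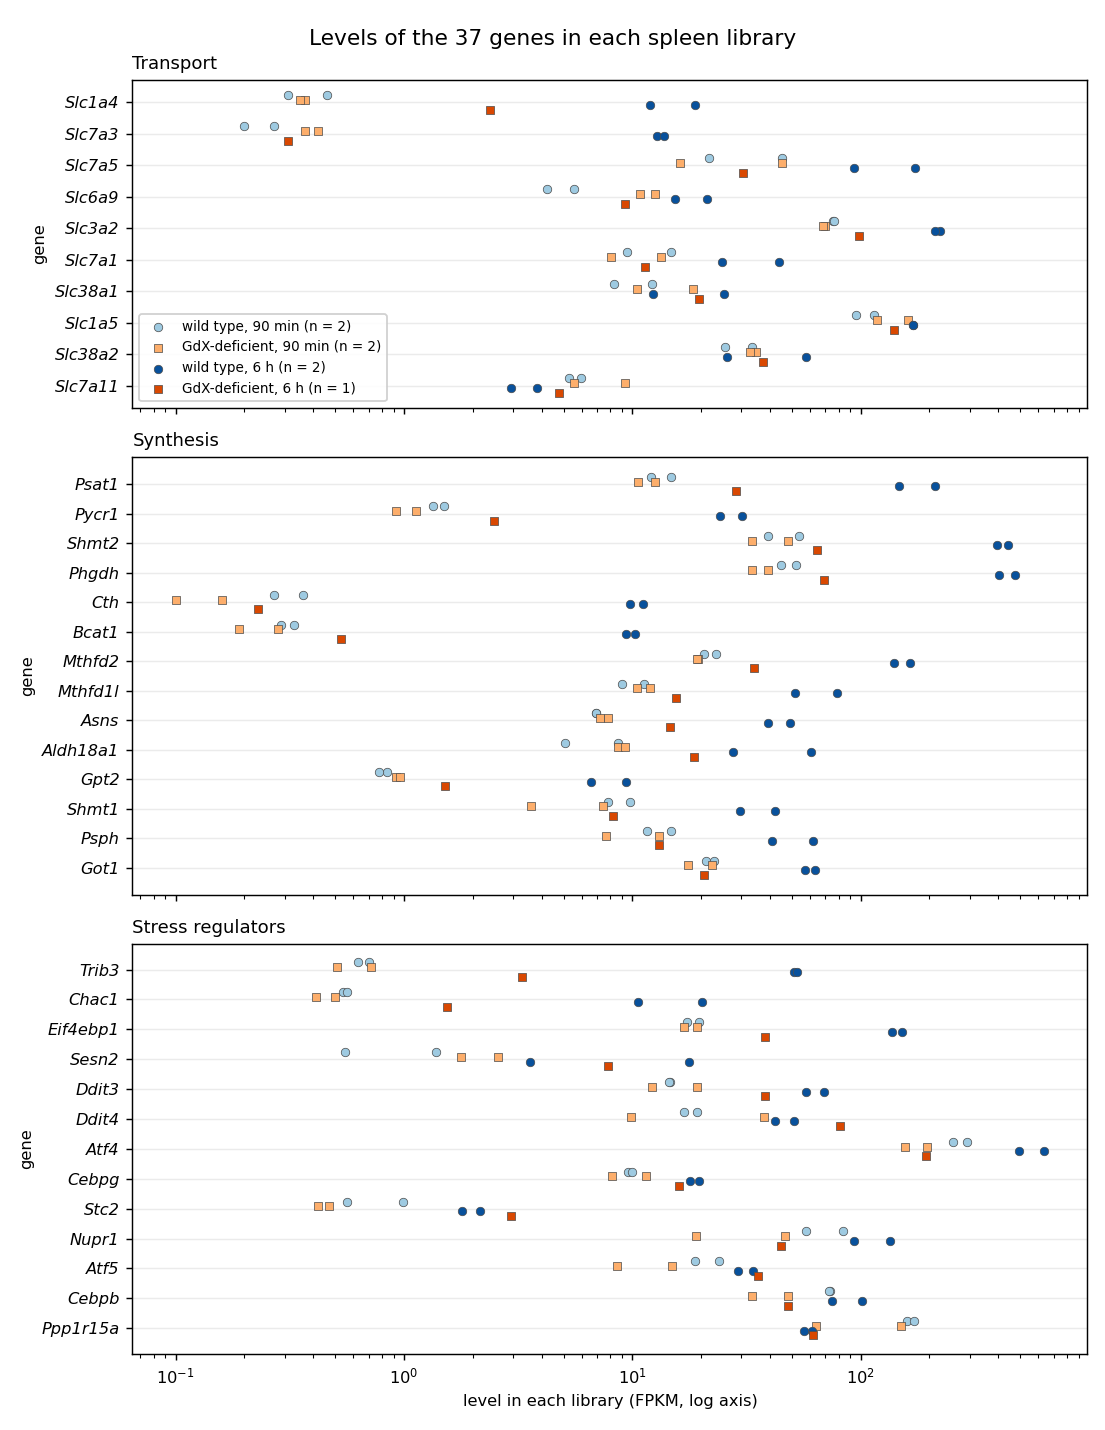
Level of each of the 37 genes (FPKM, log axis) in each of the 7 spleen libraries, 1 point per library, grouped by role and ordered by the wild-type change. For all 14 synthesis enzymes the 2 wild-type 6 h points stand apart to the right, and the GdX-deficient 6 h point lies below both of them.

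The serine pathway starts with PHGDH, which takes 3-phosphoglycerate out of glycolysis, and continues through PSAT1 and PSPH. Phgdh (Entrez gene 236539) stood at 52.2 and 44.7 FPKM in wild type at 90 min and at 472 and 403 FPKM at 6 h, against 33.5 and 39.3 FPKM at 90 min and 69.0 FPKM at 6 h in GdX-deficient spleen. Psat1 (Entrez gene 107272) stood at 12.1 and 14.8 FPKM and then 147 and 211 FPKM in wild type, against 10.6 and 12.5 FPKM and then 28.5 FPKM in GdX-deficient spleen. Both rose in wild type, Phgdh by 3.15 (SE 0.25, limma adjusted p = 0.000518) and Psat1 by 3.62 (SE 0.28, limma adjusted p = 0.000518) on the log2 scale. Psph, the phosphatase that releases serine, stood at 14.8 and 11.6 FPKM and then 61.5 and 40.8 FPKM in wild type, a smaller rise of 1.86 (SE 0.34, limma adjusted p = 0.0121). Its GdX-deficient values, 7.70 and 13.1 FPKM at 90 min and 13.1 FPKM at 6 h, did not separate by time. Without a filter on low values the wild-type calls of Psph, Shmt1 and Aldh18a1 were lost, with limma adjusted p of 0.0565, 0.0628 and 0.0549.

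Serine is then split into glycine and a one-carbon unit, by SHMT2 in mitochondria and SHMT1 in the cytosol, and MTHFD2 and MTHFD1L carry the mitochondrial unit on to formate. Shmt2 stood at 39.3 and 53.5 FPKM and then 393 and 440 FPKM in wild type, against 33.5 and 48.1 FPKM and then 64.5 FPKM in GdX-deficient spleen. Mthfd2 stood at 20.6 and 23.3 FPKM and then 164 and 139 FPKM in wild type, against 19.2 and 19.5 FPKM and then 34.1 FPKM. Mthfd1l stood at 8.99 and 11.3 FPKM and then 51.7 and 78.5 FPKM in wild type, against 10.5 and 11.9 FPKM and then 15.5 FPKM. All 3 mitochondrial genes rose in wild type, by 3.15 (Shmt2, SE 0.28), 2.73 (Mthfd2, SE 0.24) and 2.55 (Mthfd1l, SE 0.30) on the log2 scale, with limma adjusted p between 0.000707 and 0.00202. The cytosolic Shmt1 stood at 7.81 and 9.77 FPKM and then 29.6 and 42.1 FPKM in wild type, against 7.42 and 3.58 FPKM and then 8.21 FPKM. It rose by 1.90 (SE 0.36, limma adjusted p = 0.0140), the smallest change of the 4 folate enzymes, though the difference between Shmt1 and Shmt2 was not tested.

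Among the other enzymes, the largest ratios came from genes that were near the bottom of the scale at 90 min. Cth, cystathionine gamma-lyase, makes cysteine from cystathionine. It stood at 0.36 and 0.27 FPKM and then 9.74 and 11.2 FPKM in wild type, against 0.16 and 0.10 FPKM and then 0.23 FPKM in GdX-deficient spleen. Bcat1, the cytosolic branched-chain aminotransferase, stood at 0.29 and 0.33 FPKM and then 10.2 and 9.34 FPKM, against 0.28 and 0.19 FPKM and then 0.53 FPKM. For Cth the single GdX-deficient library at 6 h was in the range of the 90 min libraries. For Bcat1 it was above all of them, and far below wild type at 6 h. The ratio of wild-type means, 6 h over 90 min, was 33.2 for Cth and 31.5 for Bcat1. On the log2(FPKM + 1) scale, which understates changes of low genes, they rose by 3.12 (SE 0.23) and 3.04 (SE 0.23), each with a limma adjusted p of 0.000518. Both met the level only through wild type at 6 h, so these tests are given as a description.

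Proline is made from glutamate by ALDH18A1 and PYCR1. Pycr1 stood at 1.5 and 1.34 FPKM and then 24.1 and 30.3 FPKM in wild type, against 1.13 and 0.92 FPKM and then 2.47 FPKM in GdX-deficient spleen. It rose by 3.53 (SE 0.28, limma adjusted p = 0.000518). Aldh18a1 stood at 5.09 and 8.63 FPKM and then 27.5 and 60.6 FPKM in wild type, against 8.61 and 9.27 FPKM and then 18.6 FPKM. Its rise of 2.45 (SE 0.40, limma adjusted p = 0.00756) came with wild-type 6 h replicates that differed more than 2-fold.

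Asparagine synthetase, Asns, is the best known ATF4 target. It stood at 6.92 FPKM in both wild-type libraries at 90 min and at 39.2 and 49.1 FPKM at 6 h, against 7.83 and 7.19 FPKM and then 14.6 FPKM in GdX-deficient spleen. It rose in wild type by 2.50 (SE 0.27, limma adjusted p = 0.00178), and its GdX-deficient 6 h value lay above all 4 libraries at 90 min and below both of wild type at 6 h. The mitochondrial alanine aminotransferase Gpt2 stood at 0.84 and 0.78 FPKM and then 6.56 and 9.35 FPKM in wild type, and at 0.92 and 0.96 FPKM and then 1.51 FPKM in GdX-deficient spleen. The cytosolic aspartate aminotransferase Got1 stood at 21.1 and 22.7 FPKM and then 56.8 and 62.7 FPKM in wild type. In GdX-deficient spleen it showed no such step, with 22.4 and 17.4 FPKM at 90 min and 20.6 FPKM at 6 h. The wild-type rises were 2.29 for Gpt2 (SE 0.27, limma adjusted p = 0.00202) and 1.41 for Got1 (SE 0.26, limma adjusted p = 0.0122), the latter the smallest of the 14 enzymes. Without wild-type 90 min replicate 1 the call of Got1 was lost (limma adjusted p = 0.0781).

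The transporters were more mixed than the enzymes. Slc7a3, a cationic amino acid transporter, lay at or below 0.42 FPKM in every library other than wild type at 6 h. It stood at 0.27 and 0.20 FPKM and then 12.8 and 13.7 FPKM in wild type, against 0.37 and 0.42 FPKM and then 0.31 FPKM in GdX-deficient spleen. It rose in wild type by 3.53 (SE 0.24, limma adjusted p = 0.000465). The related Slc7a1, also a carrier of arginine and lysine, was already at 9.47 and 14.8 FPKM in wild type at 90 min and stood at 24.8 and 43.8 FPKM at 6 h, a rise of 1.40 (SE 0.38, limma adjusted p = 0.0454) whose call was lost in 8 of 16 alternative fits, with limma adjusted p between 0.00298 and 0.242. Its GdX-deficient values were 13.4 and 8.09 FPKM at 90 min and 11.3 FPKM at 6 h. Slc1a4, which exchanges alanine, serine and cysteine, stood at 0.31 and 0.46 FPKM and then 11.9 and 18.8 FPKM in wild type, against 0.37 and 0.35 FPKM and then 2.37 FPKM. It rose by 3.53 (SE 0.29, limma adjusted p = 0.000518). Slc7a3 met the level, and Slc1a4 the level for testing, only through wild type at 6 h, so their tests are given as a description.

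Slc7a5 (LAT1) and Slc3a2 (CD98 heavy chain) encode the subunits of the carrier of leucine and other large neutral amino acids. Slc7a5 stood at 21.6 and 45.3 FPKM and then 93.7 and 173 FPKM in wild type, against 45.3 and 16.2 FPKM and then 30.6 FPKM in GdX-deficient spleen. Slc3a2 stood at 75.3 and 76.4 FPKM and then 222 and 212 FPKM in wild type, against 69.6 and 68.4 FPKM and then 98.1 FPKM. Both rose in wild type, Slc7a5 by 1.99 (SE 0.51, limma adjusted p = 0.0389) and Slc3a2 by 1.5 (SE 0.23, limma adjusted p = 0.00646). The call of Slc7a5 was lost in 4 of 16 alternative fits, with limma adjusted p between 0.000478 and 0.143. Wild-type replicates were close for Slc3a2 and about 2-fold apart for Slc7a5. The glycine transporter Slc6a9 stood at 4.21 and 5.55 FPKM and then 15.4 and 21.2 FPKM in wild type, a rise of 1.71 (SE 0.30, limma adjusted p = 0.0111) that was not called without wild-type 90 min replicate 1 (limma adjusted p = 0.0773). In GdX-deficient spleen it stood at 10.8 and 12.6 FPKM at 90 min, above both wild-type libraries of that time, and at 9.26 FPKM at 6 h.

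The other 4 transporters did not pass the test in wild type. The log2 difference was 0.75 for Slc38a1 and 0.40 for Slc38a2, both carriers of glutamine and other neutral amino acids, and 0.70 for Slc1a5, an exchanger of glutamine. Slc7a11, the light chain of the cystine/glutamate exchanger, had a difference of -0.59 (SE 0.32, limma adjusted p = 0.260), with wild-type levels of 5.25 and 5.94 FPKM and then 2.94 and 3.84 FPKM, and 5.57 and 9.32 FPKM and then 4.76 FPKM in GdX-deficient spleen. Its wild-type libraries did not overlap between times, and in wild type it was the only transporter with a negative difference.

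Atf4 RNA itself stood at 291 and 254 FPKM in wild type at 90 min and 635 and 494 FPKM at 6 h, and at 196 and 156 FPKM and then 193 FPKM in GdX-deficient spleen. Both wild-type 6 h libraries were above all others, and all 3 GdX-deficient libraries were below all 4 of wild type. The wild-type rise was 1.04 (SE 0.27, limma adjusted p = 0.0379). It was lost in 8 of 16 alternative fits, with limma adjusted p between 0.00914 and 0.235. ATF4 is regulated mainly through translation, which RNA levels do not show. Its partner Cebpg, with 9.54 and 9.97 FPKM and then 17.9 and 19.5 FPKM in wild type, had a difference of 0.87 (SE 0.29, limma adjusted p = 0.0825). For Cebpb it was 0.25 (SE 0.28, limma adjusted p = 0.597).

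Trib3, a pseudokinase that is induced by ATF4 and CHOP and holds ATF4 activity in check, had the smallest p-value of all genes for time in wild type. It stood at 0.63 and 0.70 FPKM and then 51.1 and 52.8 FPKM in wild type, against 0.51 and 0.72 FPKM and then 3.27 FPKM in GdX-deficient spleen (Entrez gene 228775). The wild-type rise was 4.99 (SE 0.27, limma adjusted p = 0.000147). These levels correspond to an estimated 20 to 29 fragments in each library at 90 min, 2173 and 2148 in wild type at 6 h and 130 in the GdX-deficient library at 6 h. Ddit3, which encodes CHOP, stood at 14.7 and 14.4 FPKM and then 68.9 and 57.5 FPKM in wild type, against 12.2 and 19.3 FPKM and then 37.9 FPKM. It rose in wild type by 2.04 (SE 0.29, limma adjusted p = 0.00481). Chac1, which degrades glutathione, stood at 0.54 and 0.56 FPKM and then 10.6 and 20.3 FPKM in wild type, against 0.41 and 0.50 FPKM and then 1.54 FPKM, and rose by 3.34 (SE 0.32, limma adjusted p = 0.00105). For Trib3 and Chac1 the GdX-deficient 6 h library was above its 90 min counterparts but far below wild type, and for Ddit3 it stood at 60.02% of the wild-type mean. Chac1 met the level for testing only through wild type at 6 h, so its test is given as a description.

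Sesn2 and Ddit4, which restrain mTORC1, and Eif4ebp1, which mTORC1 inhibits, were also on the list. Eif4ebp1, a repressor of cap-dependent translation, stood at 17.3 and 19.6 FPKM and then 138 and 151 FPKM in wild type, against 16.8 and 19.2 FPKM and then 38.2 FPKM in GdX-deficient spleen. It rose in wild type by 2.90 (SE 0.25, limma adjusted p = 0.000582). Sesn2, a leucine sensor, stood at 0.55 and 1.38 FPKM and then 3.57 and 17.7 FPKM in wild type, and at 1.77 and 2.57 FPKM and then 7.85 FPKM in GdX-deficient spleen. Its rise of 2.27 (SE 0.56, limma adjusted p = 0.0350) rested on 6 h replicates that differed about 5-fold, and it lost its call in 6 of 16 alternative fits. Ddit4 (REDD1) had its highest value in the GdX-deficient 6 h library, with 16.8 and 19.2 FPKM and then 42.3 and 51.2 FPKM in wild type and 9.84 and 37.6 FPKM and then 81.0 FPKM in GdX-deficient spleen. Its wild-type difference of 1.32 (SE 0.49, limma adjusted p = 0.115) did not pass.

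The remaining regulators had their GdX-deficient 6 h value near or above wild type, except Nupr1. Atf5, a close relative of Atf4, stood at 18.7 and 23.9 FPKM and then 33.9 and 29.1 FPKM in wild type, against 14.98 and 8.58 FPKM and then 35.6 FPKM. Stc2, a secreted glycoprotein of the stress response, stood at 0.56 and 0.99 FPKM and then 1.80 and 2.15 FPKM in wild type, against 0.42 and 0.47 FPKM and then 2.94 FPKM. Neither passed the test for time in wild type, with limma adjusted p of 0.283 and 0.0784. Nupr1, a small stress-induced chromatin protein, stood at 83.2 and 57.3 FPKM and then 134 and 93.4 FPKM in wild type, against 46.8 and 19.02 FPKM and then 44.5 FPKM (log2 difference over time in wild type 0.69, limma adjusted p = 0.3). Ppp1r15a (GADD34), the phosphatase subunit that reverses eIF2 alpha phosphorylation, ran the other way. It stood at 160 and 172 FPKM and then 61.4 and 56.2 FPKM in wild type, a fall of -1.48 (SE 0.37, limma adjusted p = 0.0342) whose call was lost without a filter on low values and without wild-type 90 min replicate 2 (limma adjusted p up to 0.112), and at 150 and 63.5 FPKM and then 61.7 FPKM in GdX-deficient spleen.

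**Figure D2:**
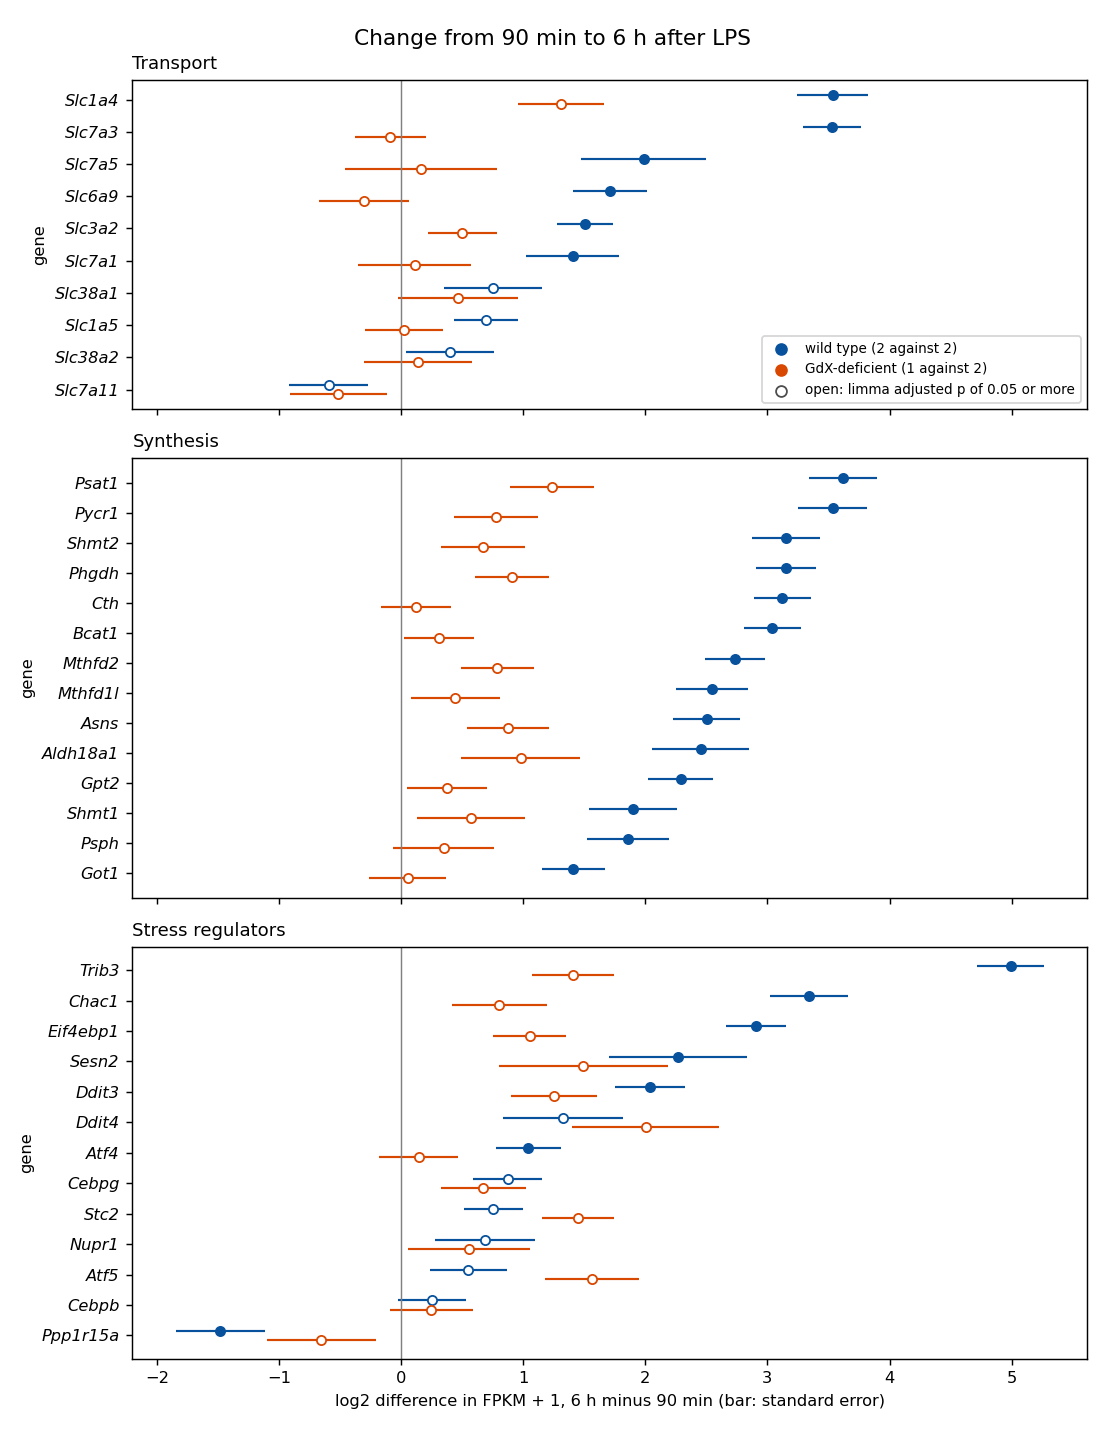
Difference from 90 min to 6 h (log2 of FPKM + 1) for each of the 37 genes in wild type (blue) and GdX-deficient spleen (orange), with the limma standard error as bar and filled points for a limma adjusted p under 0.05. The 14 enzymes lie between 1.41 and 3.62 in wild type and between 0.05 and 1.23 in GdX-deficient spleen, where no point is filled.

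In GdX-deficient spleen the enzymes and transporters had smaller median differences over the same interval than in wild type, and the stress regulators a similar one. Here and below, tests that involve this genotype at 6 h take the spread from the pairs of the other groups and assume that the lone library varies as they do. None of the 37 genes was called for time in GdX-deficient spleen, as was none of all genes (0%), while 12 of the 37 and 910 of all genes had an unadjusted limma p under 0.05. The median log2 difference of the 37 genes was 0.56 (0.62 for synthesis, 0.12 for transport, 1.05 for stress regulators), against 0.25 over all genes. Atf5 and Stc2 had larger differences here than in wild type. The 6 h library lay above both 90 min libraries for 25 of the 37 genes and for 56.8% of all genes. The largest differences were those of Ddit4 (2.00, SE 0.60), Atf5 (1.56, SE 0.39) and Sesn2 (1.49, SE 0.69), followed by Stc2 (1.45, SE 0.30) and Trib3 (1.41, SE 0.34), with limma adjusted p between 0.122 and 0.642. The value of Ddit4 rests on 90 min replicates far apart: it was 1.09 without replicate 1, below the 1.32 of wild type, and 2.92 without replicate 2. Without either replicate of wild type at 6 h, which changes the pooled spread, 6 of the 37 were called, with 2.03% and 2.07% of all genes.

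Whether the change over time differed between genotypes was tested directly as the interaction. Limma called 4 of the 37 genes for a smaller change in GdX-deficient spleen, where the share of all genes was 0.0352%, and none for a larger one (0.0352% of all genes). The 4 genes were Slc7a3 (difference of log2 changes -3.62, SE 0.38, limma adjusted p = 0.0422), Trib3 (-3.59, SE 0.43, limma adjusted p = 0.0430), Cth (-3.00, SE 0.37, limma adjusted p = 0.0430) and Bcat1 (-2.73, SE 0.37, limma adjusted p = 0.0488). Of these, Slc7a3, Cth and Bcat1 passed the level filter only through wild type at 6 h, so their calls are given as a description. Pycr1 (-2.75, limma adjusted p = 0.0735), Phgdh (-2.24, 0.0859) and Shmt2 (-2.48, 0.0905) came next without passing. The median difference was -1.47 over the 37 genes, -2.03 over the enzymes, -1.15 over the transporters and -0.20 over the stress regulators, against 0.19 over all genes. For all 14 enzymes the difference was negative, between -1.33 and -3.00, with an unadjusted limma p under 0.05, which 9.98% of all genes had. The interaction contains the wild-type change with which the list was compiled, so its count too is a description. The 4 calls lay close to the threshold. None of the 37 genes was called with a pseudocount of 0.1, without a filter on low values, after rescaling without globin genes, or without either replicate of GdX-deficient spleen at 90 min. These fits called no gene at all, except 3 of 17920 without a filter, so the zeros are not particular to the list. Leaving out wild type at 6 h gave 15 calls for replicate 1 and 12 for replicate 2, all for a smaller change, among 38 and 33 such calls over all genes. Calls for a larger change then numbered 131 and 205.

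At 90 min no gene of the list passed the test between genotypes. Limma called 0 of the 37, against 0.0176% of all genes, and 5 of the 37 had an unadjusted limma p under 0.05, as did 7.58% of all genes. The fit of the 4 libraries at 90 min alone also called 0 of the 37, where it called 1.59% of all genes. The median log2 difference, GdX-deficient minus wild type, was -0.09 over the 37 genes and 0.07 over all genes. Both GdX-deficient libraries lay below both wild-type libraries for 14 of the 37 genes (23.4% of all genes) and above both for 6 (24.1% of all genes). The 5 genes with an unadjusted p under 0.05 were Nupr1 (-1.18, SE 0.41, limma adjusted p = 0.603), Cebpb (-0.85, SE 0.28, limma adjusted p = 0.573), Atf5 (-0.84, SE 0.31, limma adjusted p = 0.621) and Atf4 (-0.63, SE 0.27, limma adjusted p = 0.621) on the lower side and Slc6a9 (1.12, SE 0.30, limma adjusted p = 0.520) on the higher side. For the 14 enzymes the differences lay between -0.65 and 0.38.

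At 6 h the single GdX-deficient library was lower than wild type for most of the list. It lay below both wild-type libraries for 29 of the 37 genes, against 25.3% of all genes, among them all 14 enzymes, 7 of 10 transporters and 8 of 13 stress regulators. Limma called 19 of the 37 genes lower, where the share of all genes was 1.05%, and none higher, where it was 2.91%. The calls were 13 of 14 enzymes, 2 of 10 transporters and 4 of 13 stress regulators. The median log2 difference was -1.53 over the 37 genes and -2.05 over the enzymes, against 0.32 over all genes. Slc7a3, Cth, Bcat1, Slc1a4 and Chac1 are among the genes called lower. They met the level for testing only through wild type at 6 h, so these counts and medians are given as a description. Without wild-type 6 h replicate 1 the medians were -1.66 over the 37 genes and 0.18 over all genes. Without replicate 2 they were -1.57 and 0.46. After quantile normalization the medians were -1.72 over the 37 genes and -0.02 over all genes. The count of genes called lower was 8 of 37 without a filter on low values (0.0949% of all genes), 11 of 30 among genes with a mean of at least 5 FPKM (0.926%) and 11 of 37 after rescaling without globin genes (0.343%).

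The extremes at 6 h were Trib3 (-3.63, SE 0.34, limma adjusted p = 0.00310), Slc7a3 (-3.44, SE 0.29, limma adjusted p = 0.00235) and Cth (-3.22, SE 0.29, limma adjusted p = 0.00280). In FPKM the GdX-deficient library held 6.30% of the wild-type mean for Trib3, 2.34% for Slc7a3, 2.20% for Cth, 5.42% for Bcat1, 9.09% for Pycr1 and 9.97% for Chac1. Slc7a3, Cth and Bcat1 met the level only through wild type at 6 h, and Chac1 the level for testing. They had to be high in that group to be counted, so their p-values and percentages are given as a description. The serine and folate enzymes lay between 15.5% (Shmt2) and 25.6% (Psph). Atf4 itself was at 34.2% of the wild-type mean (log2 difference -1.53, SE 0.32, limma adjusted p = 0.0393), a call that was lost after rescaling without globin genes, after quantile normalization and without a filter on low values. Aldh18a1, at 42.1%, was the enzyme that did not pass (-1.10, SE 0.49, limma adjusted p = 0.174). Slc7a5 (-2.02, SE 0.63, limma adjusted p = 0.0860), Slc7a1 (-1.46, SE 0.46, limma adjusted p = 0.0901) and Slc3a2 (-1.14, SE 0.28, limma adjusted p = 0.0550) lay below both wild-type libraries without a call. Ddit4 (0.79, SE 0.60, limma adjusted p = 0.406), Stc2 (0.41, SE 0.30, limma adjusted p = 0.382), Slc7a11 (0.40, SE 0.40, limma adjusted p = 0.517) and Atf5 (0.17, SE 0.39, limma adjusted p = 0.783) had higher values in the GdX-deficient library. This comparison and the interaction use the same wild-type 6 h libraries as the comparison of times in wild type, so the 3 are not independent of each other.

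**Figure D3:**
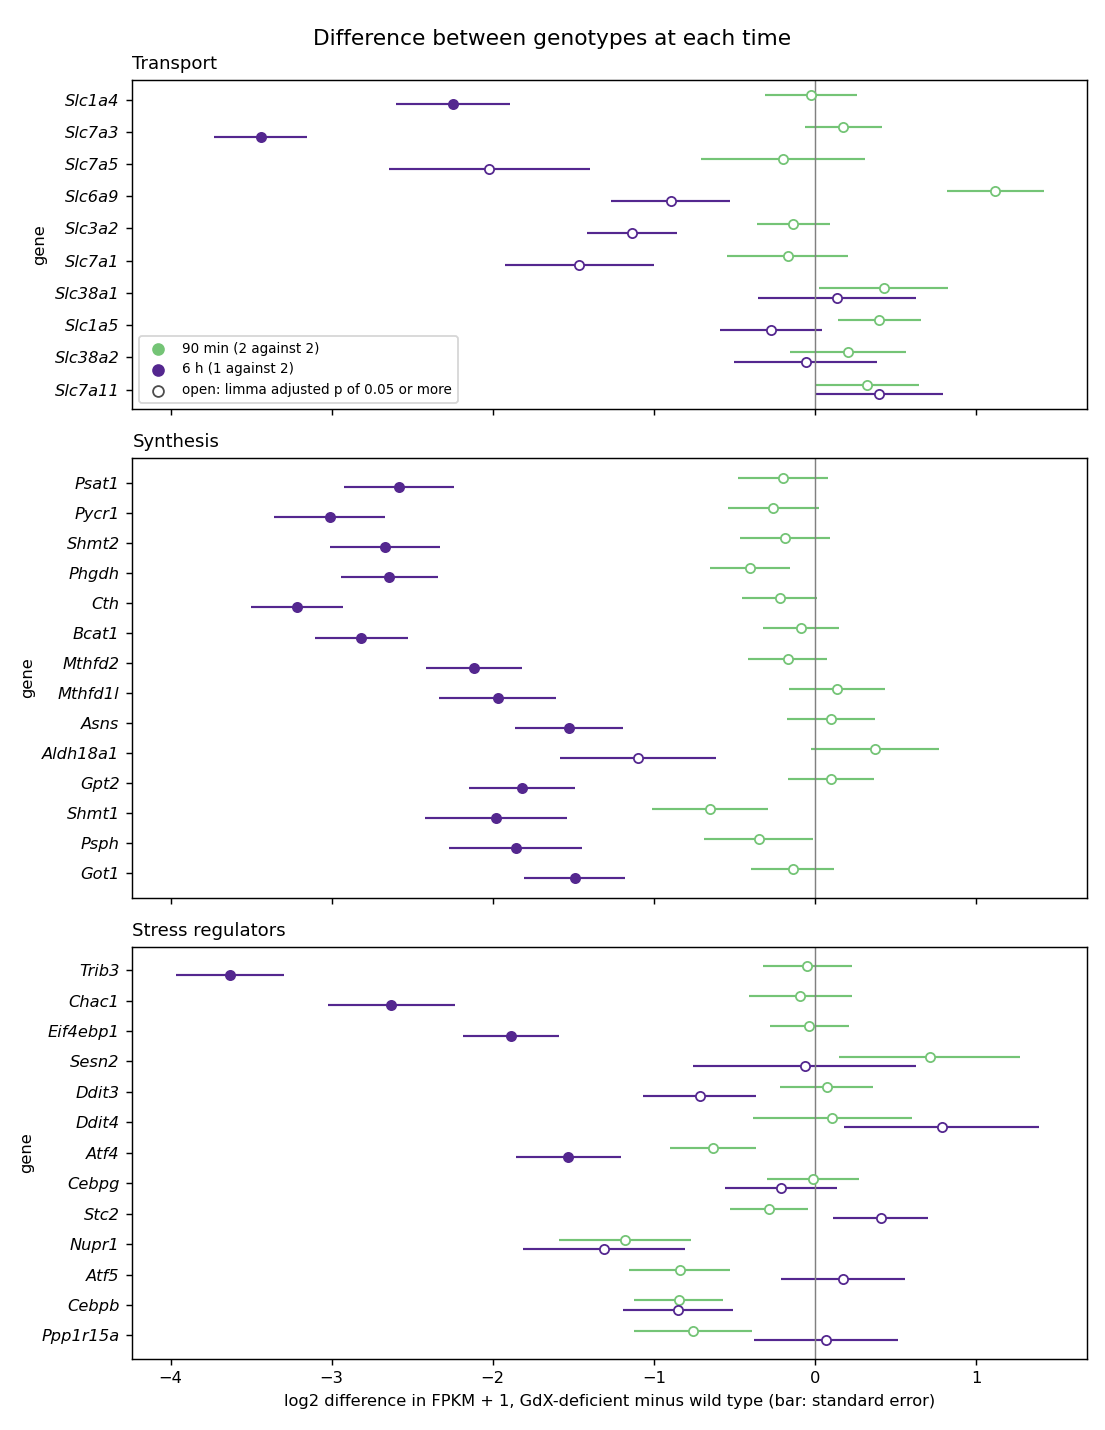
Difference between genotypes (log2 of FPKM + 1, GdX-deficient minus wild type) for each of the 37 genes at 90 min (green, 2 libraries against 2) and at 6 h (purple, 1 against 2), with the limma standard error as bar and filled points for a limma adjusted p under 0.05. The 90 min points lie between -1.18 and 1.12 and none is filled, and at 6 h 19 points are filled, all to the left of 0.

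With time as covariate, which averages both times, limma called 0 of the 37 genes for genotype (0.0439% of all genes). At an unadjusted limma p under 0.05 there were 19, against 27.0% of all genes. In this fit, leaving out the GdX-deficient 90 min replicate 1 gave 6 calls among the 37, with 14.7% of all genes called, and leaving out the wild-type 90 min replicate 2 gave 2, with 2.13%. With genotype as covariate, 21 of the 37 were called higher at 6 h, where the share of all genes was 2.79%. With no filter on low values 1 was called (0.285% of all genes), and leaving out wild-type libraries gave 11 (90 min, replicate 1, with 0.536% of all genes) and 10 (6 h, replicate 2, with 0.615%).

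Other genes of the pathway were taken from 4 lists, with 11 genes called higher and 4 lower among 76 tested for time in wild type, where the shares of all genes were 4.39% and 6.32%. Of the 17 genes of the eIF2 machinery and its kinases, limma called 2 higher in wild type at 6 h, Eif2s2 (1.28, SE 0.33, limma adjusted p = 0.0378) and Eif2b3 (1.25, SE 0.29, limma adjusted p = 0.0257). These encode the beta subunit of eIF2 and a subunit of its exchange factor eIF2B. No kinase (Eif2ak1, Eif2ak2, Eif2ak3, Eif2ak4) was called. Of 28 other one-carbon, methionine and proline enzymes tested, 4 were called higher and none lower. Those with the smallest p-values were Pck2 (1.91, SE 0.28, limma adjusted p = 0.00588), a mitochondrial enzyme of the phosphoenolpyruvate cycle, the cytosolic folate enzyme Mthfd1 (1.41, SE 0.28, limma adjusted p = 0.0157) and Gcsh (1.53, SE 0.31, limma adjusted p = 0.0181), a protein of the glycine cleavage system. Pck2 stood at 11.95 and 14.1 FPKM and then 49.5 and 53.9 FPKM in wild type, against 16.7 and 24.9 FPKM and then 28.1 FPKM in GdX-deficient spleen.

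Of 19 other amino acid transporters tested, 3 were called higher and 3 lower in wild type at 6 h. Sfxn1, the mitochondrial serine carrier, rose by 1.42 (SE 0.25, limma adjusted p = 0.0104), from 23.1 and 23.0 FPKM to 60.5 and 66.3 FPKM, and stood at 18.95 and 16.2 FPKM and then 27.0 FPKM in GdX-deficient spleen. Slc7a2, a cationic amino acid transporter, rose by 1.56 (SE 0.32, limma adjusted p = 0.0171), and the ornithine carrier Slc25a15 by 1.17 (SE 0.28, limma adjusted p = 0.0308). Slc38a5 (-1.63, SE 0.30, limma adjusted p = 0.0119), Slc43a1 (-1.30, SE 0.32, limma adjusted p = 0.0333) and Slc16a10 (-1.19, SE 0.31, limma adjusted p = 0.0397) were lower. Slc43a1 (1.89, SE 0.39, limma adjusted p = 0.0382) and Slc16a10 (1.84, SE 0.38, limma adjusted p = 0.0382) were also the only genes of the 4 lists called higher in the GdX-deficient library at 6 h. The share of all genes called higher there was 2.91%, and over all tested genes of the 4 lists these calls come close to it.

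Among 12 other targets of ATF4 or CHOP, Cars (cysteinyl-tRNA synthetase, 2.25, SE 0.25, limma adjusted p = 0.00197) and Xpot (exportin of tRNA, 2.11, SE 0.34, limma adjusted p = 0.00744) rose in wild type, and Gdf15, a secreted stress hormone, fell (-2.13, SE 0.52, limma adjusted p = 0.0322). Atf3, a stress-induced partner of the family, stood at 43.3 and 59.1 FPKM and then 45.8 and 56.5 FPKM in wild type, against 60.2 and 28.9 FPKM and then 9.74 FPKM in GdX-deficient spleen. At 6 h it was called lower in the GdX-deficient library (-2.27, SE 0.44, limma adjusted p = 0.0336), as were Cars (-1.65, SE 0.31, limma adjusted p = 0.0311) and Eif2s2 (-1.94, SE 0.40, limma adjusted p = 0.0382). No other gene of the 4 lists was called lower at 6 h, where the share of all genes was 1.05%. No gene of the 4 lists was called by limma for time in GdX-deficient spleen, for genotype at 90 min or for the interaction. Of the 76 tested, 8, 7 and 10 had an unadjusted limma p under 0.05 in these comparisons, in that order, against 8.0%, 7.58% and 9.98% of all genes.

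The same libraries differed in markers of spleen cells. The summed level of 7 B cell markers, Cd79a among them, was 1446 and 1328 FPKM in wild type at 90 min and 385 and 374 FPKM at 6 h, against 1110 and 1857 FPKM and then 1632 FPKM in GdX-deficient spleen. For 8 T cell markers it was 402 and 344 FPKM and then 183 and 161 FPKM in wild type, against 298 and 381 FPKM and then 326 FPKM. For 7 red pulp macrophage markers it was 631 and 690 FPKM and then 289 and 302 FPKM, against 651 and 600 FPKM and then 562 FPKM. In wild type 6 of 7 B cell, 7 of 8 T cell and 7 of 7 macrophage markers were lower in both 6 h libraries, and at 6 h the GdX-deficient library was above both wild-type libraries for 6, 7 and 6 of them. In bulk tissue, fewer cells of a type and less RNA per cell cannot be told apart. The 8 markers of dividing cells summed to between 137 and 214 FPKM at 90 min, to 80.9 and 86.5 FPKM in wild type at 6 h and to 171 FPKM in the GdX-deficient 6 h library. The 9 neutrophil markers summed to 741 to 1195 FPKM in the wild-type libraries and to 1038, 4769 and 2563 FPKM in the GdX-deficient ones, the last at 6 h. S100a8 and S100a9 made up most of these sums, with 1222 and 1102 FPKM in the GdX-deficient 6 h library. That library was above both wild-type 6 h libraries for 7 of the 9 markers and between them for Camp and Ltf. The part of these markers in the differences of the 37 genes was not tested.

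The pancreas lies against the spleen, and its acinar cells are rich in amino acid enzymes. Of 15 pancreas markers in the table, 10 were at 0 in both wild-type 6 h libraries, Cpa1, Cela3b, Ctrb1 and Clps among them, and apart from Cela1 they summed to at most 2.05 FPKM in any library and to 0.04 and 0.35 FPKM in wild type at 6 h. The 7 plasma cell markers summed to 444 and 429 FPKM in wild type at 90 min and 256 and 201 FPKM at 6 h, against 451 and 406 FPKM and then 457 FPKM in GdX-deficient spleen. In wild type 5 of the 7 were lower in both 6 h libraries, and 1, Sdc1, was higher. At 6 h the GdX-deficient library was above both wild-type libraries for 4 of the 7 and below both for 0. In wild type the 6 fat markers summed to 51.5 and 41.8 FPKM and then 22.2 and 10.3 FPKM, against 18.3 and 17.5 FPKM and then 4.54 FPKM in GdX-deficient spleen, nearly all from Fabp4, which macrophages and endothelium also express. Their part in the result was not tested.

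**Figure D4:**
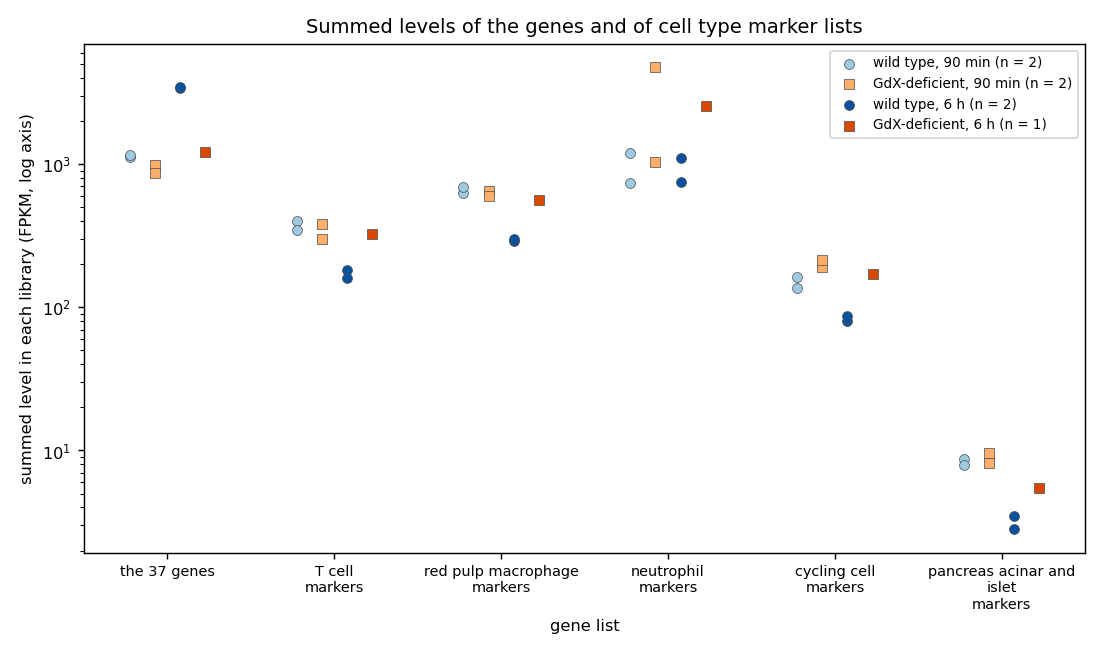
Summed level (FPKM, log axis) of the 37 genes and of 5 lists of cell type markers in each of the 7 libraries, 1 point per library. In wild type the 37 genes sum to about 1124 and 1165 FPKM at 90 min and to 3383 and 3445 FPKM at 6 h, while T cell and macrophage markers are lower at 6 h, and the GdX-deficient 6 h library, at 1216 FPKM for the 37 genes, lies near the 90 min libraries for these lists.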

How the data were processed

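Spleen RNA from 7 mice was sequenced, per the labels. The authors deposited FPKM values per gene, which scale fragments to transcript length and to library size. The submitters' processing notes name GRCm38.p5, HISAT2 2.0.4, Bowtie2 and RSEM, with no role or order, and strand use is not given in the sources used here. Genes with a mean of at least 1 FPKM (11378, among them all 37 described) were tested as log2(FPKM + 1) with limma 3.58.1 in R 4.3.3, using a trended prior and p-values adjusted by the Benjamini-Hochberg method over all of them at a threshold of 0.05. One fit held the 4 groups, so that all shared 1 estimate of the spread, and others used time or genotype as covariate. A fold change on this scale understates changes of low genes. Depth was estimated from the steps between low FPKM values. The procedure was tested on simulated data. The members, the pathway and marker lists and the tests were chosen with earlier results of these data known. Every member is named by role, with per-library values for those called, for Atf4, Asns, Ddit3 and Slc3a2 whatever their result, and for some uncalled members chosen after their values were seen. From each pathway list, called genes are named, at most 3 per direction by smallest p. Alternatives changed the pseudocount, filter, scaling, length trend, replicate block and libraries. One gene of the B cell marker list is not reported here, and its sum leaves that gene out.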

Additional observations from a re-analysis of the deposited data

Results flagged for a closer look

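For 4 genes the change from 90 min to 6 h differed between genotypes by the test of that difference itself, the interaction in limma. The difference of log2 changes, GdX-deficient minus wild type, was -3.62 for Slc7a3, -3.59 for Trib3, -3.00 for Cth and -2.73 for Bcat1, with limma adjusted p from 0.0422 to 0.0488. Slc7a3, Cth and Bcat1 passed the level filter only through the 2 wild-type 6 h libraries, the group that makes the difference. GdX-deficient spleen at 6 h was 1 library. Each of the 4 lost the call in 5 or 6 alternative fits.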

How the results depend on the processing

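The number of the 37 genes called for time in wild type stayed within 1.5 times its value of 27 in every alternative run. It went from 19 without a filter on low values (1.32% of all genes higher, 2.22% lower) to 30 with the replicate block. The share of all genes called for time in wild type was less stable when 1 wild-type library was left out. None of the 37 was called for genotype at 90 min in any alternative. For genotype at 6 h, 19 were called, against 8 without a filter on low values, 11 among genes with a mean of at least 5 FPKM and 11 after rescaling without globin genes. For the interaction, 4 were called, against 0 with a pseudocount of 0.1, without a filter, at a mean of at least 5 FPKM, a filter that leaves 30 of the 37 genes and removes Slc7a3, Cth and Bcat1, or after rescaling without globin genes, and 12 with the transcript length trend removed (0.145% of all genes lower). Leaving out 1 library at a time gave 0 to 15 for the interaction (0% to 2.09% of all genes), 0 to 6 for time in GdX-deficient spleen (0% to 2.07%), 0 to 6 for genotype with time as covariate (0.0176% to 14.7%) and 10 to 27 for time with genotype as covariate (1.35% to 10.6%), where no filter gave 1. The cause was not tested. Of 3836 single-gene values under alternatives, 3462 kept direction and side of the threshold, 163 lost a call, 93 gained one and 118 uncalled values changed sign. No called value changed sign.

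Between wild type at 90 min and 6 h, differences between replicates 1 and 2 correlated across genes at 0.77. Within wild type, replicate numbers thus followed a shared difference, and what it reflects was not tested. Across genotypes they did not pair the samples. The correlation was 0.08 between GdX-deficient at 90 min and wild type at 6 h, and -0.12 between the genotypes at 90 min. With the replicate block, 30 of the 37 genes were called for time in wild type, 22 for genotype at 6 h, 6 for the interaction (0.703% of all genes), 21 for time with genotype as covariate (6.72%) and 0 otherwise, while over all genes those higher and lower went from 499 and 719 to 1073 and 1272 for time in wild type and from 331 and 119 to 2665 and 718 for genotype at 6 h. A crossed pairing at 90 min, added after seeing the data, called 0.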
